A study of Homo sapiens with 12 samples.

Results

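The 10 genes described here encode transcription factors, and partners of such factors, that establish and keep the B-cell identity of a lymphocyte: PAX5, EBF1, TCF3, ID3, SPI1, SPIB, POU2F2, POU2AF1, IKZF1 and IKZF3. They were chosen by name, as the rows whose Ensembl identifier has one of these symbols in GENCODE release 44, and all 10 were found among 60675 identifiers. The rule uses no measured value, although the genes were proposed with earlier results of these data known.

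RNA was sequenced from SUDHL6 and SUDHL16, human cell lines of diffuse large B-cell lymphoma (DLBCL). Each was represented by its parental line, which is sensitive to the BCL2 inhibitor venetoclax (ABT-199), and by a venetoclax-resistant line made from it by growing the cells in slowly rising venetoclax over months. There were 3 libraries in each of the 4 groups: SUDHL6-parental (CE-7 to CE-9), SUDHL6-resistant (CE-10 to CE-12), SUDHL16-parental (CE-25 to CE-27) and SUDHL16-resistant (CE-28 to CE-30). The resistant lines were kept under venetoclax and, like the parental ones, put into fresh medium for experiments, with no word on drug at harvest, so that resistance and recent drug exposure cannot be told apart. Each line gave 1 resistant derivative. No source says that the 3 libraries of a group came from separate cultures, so p-values measure the spread between these libraries, which may be technical. SUDHL6 was prepared with the NEBNext Ultra II kit and SUDHL16 with a stranded total RNA kit after ribosomal depletion, on different instruments, so kit and line cannot be told apart and levels were compared within a line.

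The SUDHL6 libraries held 33992784 to 40885665 counts and the SUDHL16 libraries 4131927 to 22068221. The smallest was CE-26, a SUDHL16-parental library that stood apart from the rest: 31.9% of its counts fell outside GENCODE 44 and 34938 genes had a count, against 20896 to 24655 genes in the other SUDHL16 libraries. Most results in SUDHL16 are therefore given with and without it. The biological coefficient of variation estimated by edgeR was 0.0516 in SUDHL6, 0.468 in SUDHL16 and 0.339 in SUDHL16 without CE-26, so that much smaller changes could be resolved in SUDHL6. All 6 B-cell markers examined, MS4A1, CD79A, CD79B, CD22 and PTPRC among them, had counts in each group, with a summed level of 4514 to 4822 CPM (counts scaled to library size) in SUDHL6 and 2449 to 3835 CPM in SUDHL16. In SUDHL6 the 6 markers of T cells summed to at most 0.275 CPM and the 6 of myeloid cells to at most 0.206 CPM. In SUDHL16 the 4 erythroid markers summed to 81.0 to 751 CPM in the parental libraries and 2.87 to 71.9 CPM in the resistant ones. The sum was highest in CE-26 and came almost wholly from HBA1 and HBB. GATA1 and ALAS2 had 5 and 7 counts in CE-25 and 0 in every other SUDHL16 library. The 4 stromal markers summed to 19.7 to 42.7 CPM in SUDHL16-parental and at most 0.425 CPM in SUDHL16-resistant. Most of this was DCN, at 19.7 CPM in CE-25 and CE-27 and 25.5 CPM in CE-26. The 6 T-cell markers summed to 1.49 to 14.1 CPM and 11.6 to 13.7 CPM. In SUDHL16-resistant nearly all of this was CD3E, at 10.8 to 13.4 CPM, with CD3D, CD2, CD5 and CD7 at 0. The part of these other transcripts in the results below was not tested.

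B-cell identity is built in steps. The ETS factor PU.1, encoded by SPI1, and Ikaros, encoded by IKZF1, open the lymphoid programme, after which the E protein E2A, encoded by TCF3, and EBF1 switch on PAX5, the factor that commits a cell to the B lineage by activating B-cell genes and silencing those of other lineages. In mature B cells Oct-2 (POU2F2) and its coactivator OCA-B (POU2AF1), the PU.1 relative Spi-B (SPIB), and Aiolos (IKZF3) sustain the germinal centre response from which DLBCL arises, while ID3 binds E proteins and keeps them off DNA.

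On GRCh38, as annotated in GENCODE 44, the genes lie on 7 chromosomes. PAX5 spans 36833269 to 37034268 of chromosome 9, EBF1 158695920 to 159099916 of chromosome 5, and ID3, a short gene, 23557926 to 23559501 of chromosome 1, all on the minus strand. TCF3 (1609291 to 1652615) and POU2F2 (42086110 to 42196585), both on the minus strand, and SPIB (50418938 to 50431314), on the plus strand, share chromosome 19. SPI1 (47354860 to 47378547) and POU2AF1 (111352255 to 111455630) lie on the minus strand of chromosome 11, IKZF1 (50304068 to 50405101) on the plus strand of chromosome 7, and IKZF3 (39757718 to 39864312) on the minus strand of chromosome 17. Counts are per gene, so isoforms were not separated.

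The promoters of PAX5, ID3 and IKZF1 are shown because these are the 3 members whose SUDHL16-resistant libraries all lay above the SUDHL16-parental ones. Each runs 5′ to 3′ on the gene's own strand before a RefSeq start site (GRCh38.p14), and capitals mark letters that match a PU box or an E-box. The sequences are chr9:37034269-37034518 on the minus strand for PAX5 and chr1:23559502-23559751 on the minus strand for ID3, each the 250 bases up to the start, and chr7:50304466-50304675 on the plus strand for IKZF1. The last is the first 210 bases of the window of 1 IKZF1 start, since an exon of another IKZF1 transcript lies in the rest.
PAX5: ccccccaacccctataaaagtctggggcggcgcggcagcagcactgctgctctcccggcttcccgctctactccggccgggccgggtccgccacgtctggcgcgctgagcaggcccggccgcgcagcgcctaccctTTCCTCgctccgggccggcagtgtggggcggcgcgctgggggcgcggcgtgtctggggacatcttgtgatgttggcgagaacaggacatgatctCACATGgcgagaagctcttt
ID3: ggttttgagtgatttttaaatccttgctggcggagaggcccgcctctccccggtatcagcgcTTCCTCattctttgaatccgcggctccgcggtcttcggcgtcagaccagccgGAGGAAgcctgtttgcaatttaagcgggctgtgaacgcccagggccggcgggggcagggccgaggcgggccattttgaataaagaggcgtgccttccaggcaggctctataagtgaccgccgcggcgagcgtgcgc
IKZF1: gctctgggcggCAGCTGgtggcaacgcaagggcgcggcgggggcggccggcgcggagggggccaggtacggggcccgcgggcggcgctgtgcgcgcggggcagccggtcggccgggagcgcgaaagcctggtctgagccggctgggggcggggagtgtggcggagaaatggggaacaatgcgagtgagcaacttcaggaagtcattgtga

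Promoter windows of 250 bases were found in RefSeq for 7 members, 9 windows in all. Both strands were searched for the octamer ATGCAAAT read by Oct-2, the E-box CANNTG of E proteins, the PU box GAGGAA of PU.1 and Spi-B, and the Ikaros core TGGGAA, none of which overlapped another in the 3 sequences shown. An E-box was present in 6 of the 9 windows, against 61.8% of 35116 promoters of the same length, and a PU box in 4 of 9, against 23.6%. The Ikaros core was present in 2 of 9 (20.8% of all promoters), and the octamer (1.63%) in none. IKZF1 has 3 of the 9 windows, and its PU boxes lie in the third, which is not shown. The ID3 window held 2 PU boxes and no E-box, and 62.0% of its bases were G or C with 24 CpG pairs, where the medians of all promoters were 58.0% and 11. These matches describe letters only and are not evidence that a factor binds.

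No member passed the call used here, a Benjamini-Hochberg adjusted p under 0.05 in edgeR's quasi-likelihood test with a change of at least 1.5-fold, in either line. In SUDHL6 0 of 10 members were called, where 8.96% of 16662 genes tested were (4.31% higher and 4.65% lower in the resistant line). In SUDHL16 0 of 10 were called, where 5.3% of 15708 genes were (3.2% higher and 2.1% lower). All 10 passed the filter on low counts in both lines. At an unadjusted p under 0.05 in edgeR, 7 of 10 members were found in SUDHL6 (45.2% of all genes) and 3 of 10 in SUDHL16 (19.1%). DESeq2 and limma voom also called 0 members in SUDHL6, where they called 7.71% and 9.11% of all genes. In SUDHL16 DESeq2 called 2 members (11.1% of all genes), voom 3 (16.9%), a single edgeR fit of all 12 libraries 3 (14.6%) and edgeR with no filter 1 (2.14%). The median log2 fold change of the 10 members, resistant over parental, was 0.03 in SUDHL6 and 0.08 in SUDHL16, beside -0.00 and -0.02 over all genes tested.

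What did move in SUDHL6 was small. An adjusted p under 0.05 at any fold was reached by 5 of 10 members, where 37.3% of all genes reached it: ID3, SPI1, IKZF1 and TCF3 were higher and EBF1 lower in the resistant line, each by less than 1.5-fold. In SUDHL16 the 3 members with an unadjusted p under 0.05 were ID3 and IKZF1, both higher, and IKZF3, which was lower. Without CE-26, 1 of 10 members was called in SUDHL16, ID3, where 10.0% of 16280 genes were (6.73% higher and 3.32% lower). At an unadjusted p under 0.05 there were again 3, where 23.3% of genes were.

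**Figure D1:**
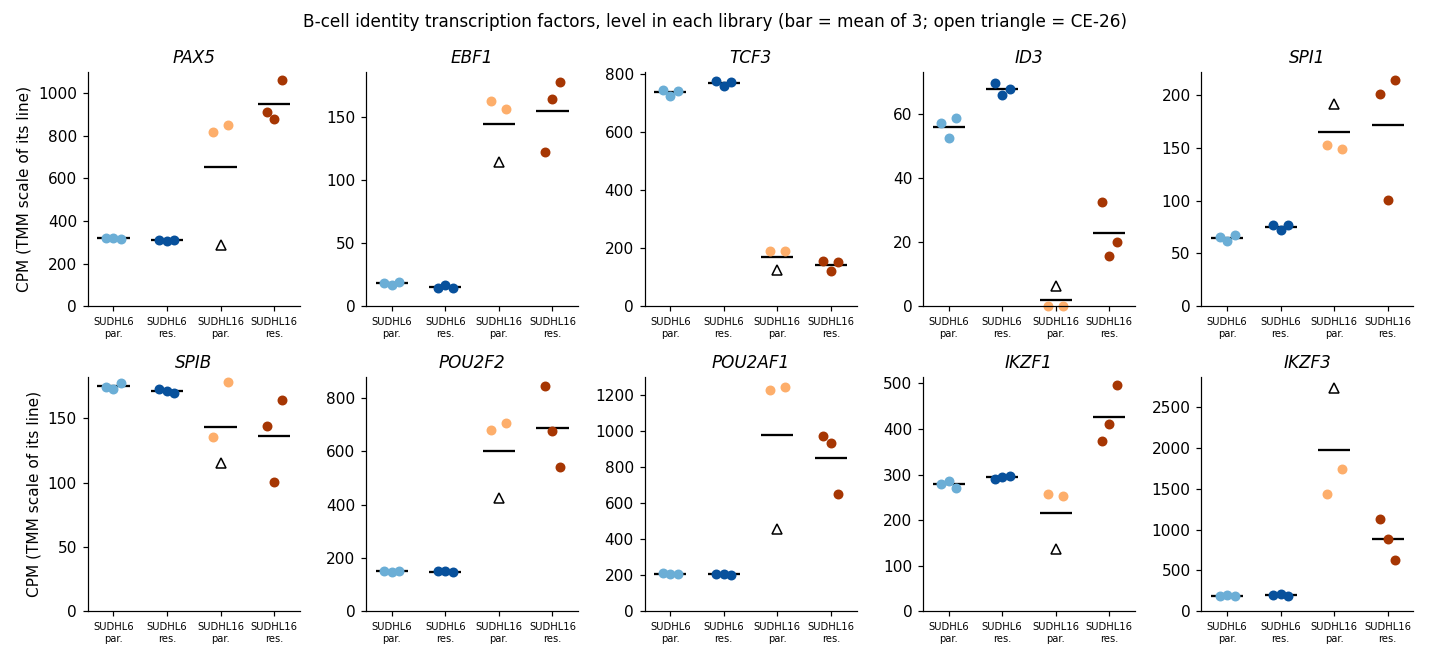
Level of each member in CPM (vertical axis, from 0, on the TMM scale of its own line) in the 3 libraries of each group, where points are libraries, bars are means of 3 and the open triangle is CE-26. The SUDHL6 libraries lie close together within each group, while in SUDHL16 CE-26 lies below both other parental libraries for PAX5, POU2AF1 and IKZF1 and above them for IKZF3.

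PAX5, the keeper of B-cell commitment, differed by a few percent between the SUDHL6 groups. It stood at 322, 319 and 317 CPM in CE-7, CE-8 and CE-9 and at 311, 308 and 310.5 CPM in CE-10, CE-11 and CE-12. The resistant libraries were all below the parental ones, by a log2 fold change of -0.04 ± 0.02 (SE, edgeR, adjusted p = 0.0750). In SUDHL16 PAX5 stood at 817, 288 and 849 CPM in CE-25, CE-26 and CE-27 and at 912, 879 and 1061 CPM in CE-28, CE-29 and CE-30. All resistant libraries were above all parental ones, with CE-26 far below its 2 partners, and the change was 0.54 ± 0.42 in log2 (edgeR, adjusted p = 0.556) with it and 0.20 ± 0.21 (adjusted p = 0.649) without, with a 95% interval of -0.28 to 0.68.

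EBF1, the pioneer factor that acts upstream of and together with PAX5, was the scarcest member in SUDHL6 per kilobase of exon. It stood at 18.4, 17.0 and 18.9 CPM in the parental libraries and at 14.3, 16.9 and 14.7 CPM in the resistant ones. The groups met without overlapping, and the log2 fold change of -0.24 ± 0.08 passed the adjusted threshold (edgeR, adjusted p = 0.0277) at 1.18-fold. The SUDHL16 values were 162, 114 and 156 CPM against 123, 164 and 178 CPM. These groups overlapped, and the estimate changed sign with the library left out, from 0.10 ± 0.26 with all 6 to -0.03 ± 0.23 without CE-26 (edgeR, adjusted p = 0.888 and 0.952).

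TCF3 encodes E12 and E47, the E proteins at the head of the B-cell programme. In SUDHL6 it stood at 745, 725 and 743 CPM and rose to 776, 759 and 773 CPM in the resistant libraries, a log2 fold change of 0.06 ± 0.02 (edgeR, adjusted p = 0.0128). The groups did not overlap, though the difference amounted to 1.04-fold. In SUDHL16 it stood at 190.0, 126 and 192 CPM in the parental and 155, 120.5 and 151 CPM in the resistant libraries. CE-26 lay among the resistant libraries while CE-25 and CE-27 lay above all of them, and the change was -0.25 ± 0.26 in log2 (edgeR, adjusted p = 0.675) with CE-26 and -0.41 ± 0.21 (adjusted p = 0.300) without it.

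ID3, the inhibitor of those E proteins and a gene often mutated in Burkitt lymphoma, gave the widest contrast of the 10. In SUDHL16-parental no read was counted in CE-25 or CE-27, while CE-26 held 18 counts, or 6.20 CPM. SUDHL16-resistant libraries held 334 to 488 counts, at 32.7, 15.7 and 19.9 CPM in CE-28, CE-29 and CE-30. Every resistant library was above every parental one, with or without CE-26.

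Set against a floor of 3 counts per library, the mean of the resistant libraries (22.8 ± 8.83 CPM, SD, n = 3) was at least 122-fold higher than the 2 parental libraries at 0, for which the higher floor was 0.186 CPM. This bound covers counting error only. With all 6 libraries the fitted log2 fold change came to 4.18 ± 1.61 (edgeR, adjusted p = 0.202), and without CE-26 ID3 was called (adjusted p = 3.94e-04), with a fitted change that depends on the prior count and is not given as a bound. With CE-26 kept, ID3 also passed the call in edgeR with no filter (adjusted p = 0.0316), in the single fit of all 12 libraries (0.00777) and with limma voom (2.03e-04), and did not with DESeq2 (0.379), so the call rests on CE-26, the filter and the fit.

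Reads in CE-26 were also spread over many genes at 0 in its 2 partners. Of 5734 protein-coding genes at 0 in both CE-25 and CE-27, 3681 (64.2%) had a count in CE-26, and 729 of them were at or above the level of ID3 there. Among the 5734 were 27 genes with at least 5 CPM in every SUDHL16-resistant library, ID3 included. Of these 27, 21 had a count in CE-26, at a median of 13.9% of their mean level in the resistant line, and ID3 stood at 27.2% of its own. Of 28 markers of lineages other than B cells, 21 had a count in CE-26, with a median of 2.76 CPM over the 28, and 7 were at or above the level of ID3, up to HBA1 of erythroid cells at 603 CPM. Where the reads of CE-26 came from was not tested.

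In SUDHL6, ID3 was present throughout. It stood at 57.2, 52.5 and 58.7 CPM in the parental and 69.8, 65.9 and 67.8 CPM in the resistant libraries. The groups were apart, with a log2 fold change of 0.27 ± 0.04 (edgeR, adjusted p = 1.87e-04), or 1.21-fold. ID3 was thus higher in the resistant libraries of both lines, by unlike amounts.

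SPI1 encodes PU.1, which acts in both B and myeloid cells. In SUDHL6 it rose from 65.9, 62.1 and 67.3 CPM to 77.2, 71.9 and 77.2 CPM. The groups did not overlap and differed by 0.21 ± 0.04 in log2 (edgeR, adjusted p = 7.76e-04), or 1.16-fold. In SUDHL16 it stood at 153, 192 and 149 CPM against 201, 101 and 214 CPM. CE-29 was lowest and CE-30 highest of the 6, so the groups overlapped, and the difference of 0.07 ± 0.33 in log2 (edgeR, adjusted p = 0.941) had a 95% interval of -0.68 to 0.81. Without CE-26 the difference was 0.20 ± 0.33 (edgeR, adjusted p = 0.785).

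SPIB, the relative of PU.1 restricted to lymphoid cells, did not reach the adjusted threshold in either line. In SUDHL6 it stood at 175, 173 and 178 CPM against 173, 171 and 169 CPM, a log2 fold change of -0.03 ± 0.02 (edgeR, adjusted p = 0.279). The resistant libraries were just below the parental ones there, within a 95% interval of -0.08 to 0.02. The SUDHL16 values of SPIB were 136, 115 and 178 CPM against 144, 101 and 165 CPM, with overlapping groups and a log2 fold change of -0.07 ± 0.28 (edgeR, adjusted p = 0.927). Leaving out CE-26 gave -0.19 ± 0.27 (edgeR, adjusted p = 0.746). CE-29 was lowest for SPIB as it was for SPI1.

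POU2F2, the octamer-binding factor Oct-2, was level in SUDHL6, at 151, 148 and 151 CPM against 151, 151 and 147 CPM. Its change of -0.00 ± 0.02 in log2 (edgeR, adjusted p = 0.898) had a 95% interval of -0.06 to 0.05. In SUDHL16 it stood at 677, 423 and 703 CPM against 842, 677 and 539 CPM. CE-28 was highest and CE-26 lowest, and the change was 0.19 ± 0.33 in log2 (edgeR, adjusted p = 0.819) with CE-26 and 0.00 ± 0.25 (adjusted p = 0.995) without. POU2F2-AS1 and POU2F2-AS2, antisense RNAs inside the POU2F2 locus, shared no exon bases with it.

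POU2AF1, the B-cell coactivator that docks onto Oct-1 and Oct-2, was likewise level in SUDHL6. It stood at 213, 207 and 207 CPM against 209.9, 207 and 204 CPM, a log2 fold change of -0.01 ± 0.02 (edgeR, adjusted p = 0.712). The SUDHL16 values of POU2AF1 were 1227, 454 and 1245 CPM against 969, 932 and 649 CPM. CE-25 and CE-27 lay above every resistant library and CE-26 below them all, and the change was -0.20 ± 0.43 in log2 (edgeR, adjusted p = 0.861) with CE-26 and -0.53 ± 0.24 (adjusted p = 0.232) without it.

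The Ikaros-family members IKZF1 and IKZF3 had opposite signs in SUDHL16, and neither passed the call in edgeR. IKZF1, encoding Ikaros, stood at 258, 138 and 253 CPM in the parental and 374, 410.3 and 495 CPM in the resistant libraries. Every resistant library was higher, by a log2 fold change of 0.98 ± 0.32 (edgeR, adjusted p = 0.135), and by 0.75 ± 0.22 (adjusted p = 0.0695) without CE-26. IKZF3, encoding Aiolos, stood at 1431, 2732 and 1741 CPM in the parental and 1132, 886 and 629 CPM in the resistant libraries. Every resistant library was lower, by a log2 fold change of -1.16 ± 0.38 (edgeR, adjusted p = 0.142), and by -0.83 ± 0.28 (adjusted p = 0.108) without CE-26.

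Leaving out CE-26 did not bring either past the call in edgeR. Both passed with DESeq2 (adjusted p = 0.0219 for IKZF1 and 0.0105 for IKZF3), in a single edgeR fit of all 12 libraries (0.0217 and 0.00740) and with limma voom and library quality weights (0.0307 and 0.0261). These 2 genes differed by little in SUDHL6. IKZF1 stood there at 279.8, 286 and 271 CPM against 290.5, 295 and 297 CPM, a log2 fold change of 0.08 ± 0.02 (edgeR, adjusted p = 0.0163). IKZF3 stood at 189, 196 and 191 CPM against 200.4, 213 and 195 CPM, with 1 parental library within the range of the resistant ones and a log2 fold change of 0.08 ± 0.03 (edgeR, adjusted p = 0.0628). In bulk RNA, fewer cells with a transcript and less of it per cell cannot be told apart.

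Counted over the 10, the libraries of the groups did not overlap for 7 members in SUDHL6 (4 higher and 3 lower in the resistant line), where 47.9% of all genes tested did not overlap (23.1% higher and 24.8% lower). In SUDHL16 this held for 4 members (3 higher and 1 lower), where it held for 26.6% of genes (14.6% higher and 11.9% lower). Without CE-26 it held for 6 members (3 higher and 3 lower) and for 42.2% of genes (22.4% higher and 19.8% lower).

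**Figure D2:**
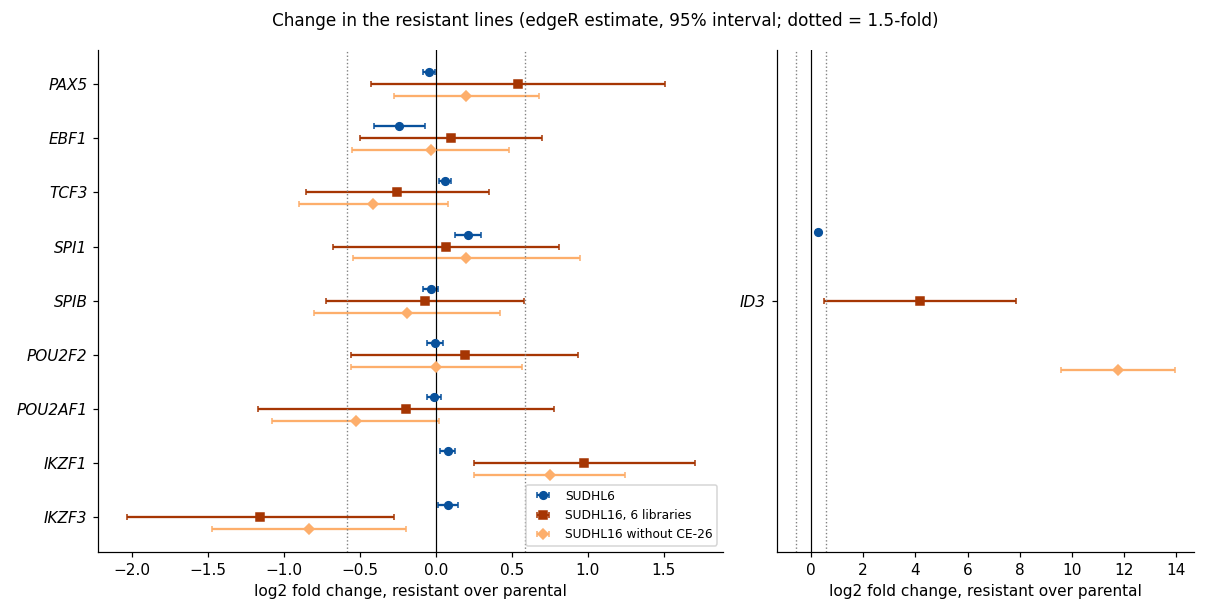
Log2 fold change, resistant over parental (horizontal axis), of each member in SUDHL6 (circles), SUDHL16 with 6 libraries (squares) and SUDHL16 without CE-26 (diamonds), with 95% intervals from edgeR and dotted lines at 1.5-fold. ID3 has its own panel with a wider axis, and in it the SUDHL6 value of 0.27 sits beside SUDHL16 values of 4.18 and 11.75.

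Levels can be set side by side between genes of a library group once divided by the length of the annotated exons, though the order depends on the length used. The exons of all transcripts together span 6996 bases for POU2AF1 and 10129 for IKZF3. Their canonical transcripts have 2875 and 9788 bases. The order was not worked out with canonical lengths. In SUDHL6-parental TCF3 was the highest member at 116 ± 1.78 CPM per kb (SD, n = 3), followed by SPIB at 40.9 ± 0.570 and ID3 at 37.5 ± 2.16, and EBF1 was the lowest at 2.86 ± 0.160. PAX5 at 33.4 ± 0.272 and SPI1 at 31.9 ± 1.33 CPM per kb were neighbours in this order within 2 SD of each other. In SUDHL6-resistant TCF3 was again first at 121 ± 1.44 and EBF1 last at 2.43 ± 0.223 CPM per kb, while ID3 at 45.3 ± 1.28 stood above SPIB at 40.0 ± 0.424.

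In SUDHL16-parental IKZF3 was first at 194 ± 67.1 CPM per kb, before POU2AF1 at 139 ± 64.6, and ID3 was last at 1.38 ± 2.39. The first 2 lay within their spread of each other and changed places without CE-26, at 177 ± 1.82 for POU2AF1 and 157 ± 21.7 for IKZF3 (n = 2). In SUDHL16-resistant POU2AF1 was first at 121 ± 24.99, followed by PAX5 at 99.3 ± 10.1, IKZF3 at 87.1 ± 24.9 and SPI1 at 84.4 ± 30.5 CPM per kb, which did not differ beyond their spread. ID3 was last again at 15.2 ± 5.90 CPM per kb, after TCF3 at 22.3 ± 2.99. IKZF1 moved from ninth place in SUDHL16-parental, at 19.8 ± 6.23, to sixth place in SUDHL16-resistant, at 39.1 ± 5.71 CPM per kb.

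Ratios of partner genes within a library cancel the scaling between libraries. In SUDHL6 the ratio of ID3 to TCF3 per kb of exon was 0.308 to 0.336 in the parental and 0.370 to 0.383 in the resistant libraries. In SUDHL16 it was 0 in CE-25 and CE-27 and 0.209 in CE-26, against 0.555 to 0.895 in the resistant libraries. ID3 RNA thus stood higher relative to TCF3 RNA in all 6 resistant libraries than in the parental libraries of the same line. TCF4, another E protein, stood at 369.9 CPM in SUDHL16-resistant. Neither TCF4 nor any other E-protein or ID gene is part of this ratio.

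The ratio of IKZF3 to IKZF1 per kb was 0.728 to 0.759 and 0.706 to 0.776 in SUDHL6-parental and SUDHL6-resistant, which overlapped. In SUDHL16 the ratio went from 5.98, 21.4 and 7.41 in CE-25, CE-26 and CE-27 to 1.37 to 3.26 in the resistant libraries, with medians of 7.41 and 2.33. The groups were also apart without CE-26, since CE-25 and CE-27 both lay above the highest resistant library.

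The ratio of SPIB to SPI1 per kb was 1.26 to 1.33 in SUDHL6-parental and 1.05 to 1.14 in SUDHL6-resistant, and overlapped in SUDHL16 (0.286 to 0.569 against 0.340 to 0.476). POU2AF1 to POU2F2 was 1.78 to 1.83 and 1.78 to 1.81 in SUDHL6 and overlapped in SUDHL16, where CE-26 gave 1.39 against 2.30 and 2.35 in its partners and 1.49 to 1.79 in the resistant libraries. PAX5 to EBF1 overlapped in both lines, at 11.1 to 12.4 and 11.99 to 14.3 in SUDHL6 and 1.66 to 3.58 and 3.54 to 4.91 in SUDHL16.

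**Figure D3:**
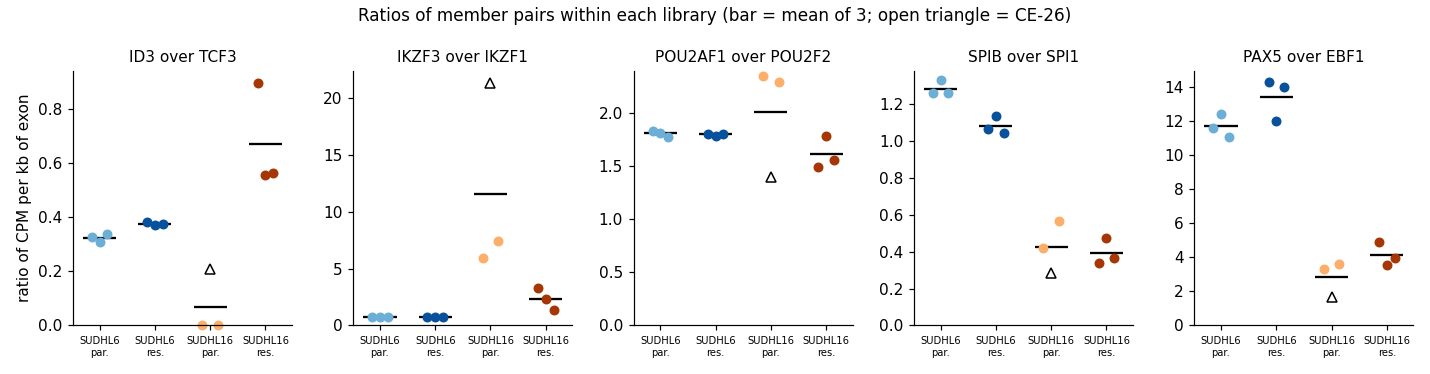
Ratio of 5 pairs of members within each library, from CPM per kb of exon (vertical axes, from 0), where points are libraries, bars are means of 3 and the open triangle is CE-26. In SUDHL16 the resistant libraries lie above the parental ones for ID3 over TCF3 and below them for IKZF3 over IKZF1.

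An interaction term in 1 fit of all 12 libraries asked whether SUDHL16 and SUDHL6 changed by different amounts on resistance. It passed an adjusted p under 0.05 for 2 of 10 members, where 7.16% of 19621 genes did. That fit gave each gene 1 dispersion for 2 lines of unlike spread, so its adjusted p-values may be too low. The SE of the ID3 interaction was 1.28, against 1.61 for its change in SUDHL16 fitted alone. That of IKZF3 was 0.32 against 0.38. Most other members had the larger SE in the interaction. Neither ID3 nor IKZF3 was called in SUDHL16 fitted alone with all 6 libraries. For IKZF3 the log2 fold change was -1.16 in SUDHL16 and 0.08 in SUDHL6, and the interaction was -1.18 ± 0.32 (SE, edgeR, adjusted p = 0.0476). For ID3 it was 4.18 in SUDHL16 and 0.27 in SUDHL6, and the interaction was 4.81 ± 1.28 (edgeR, adjusted p = 0.0440). IKZF1 had an interaction of 0.91 ± 0.35 (edgeR, adjusted p = 0.155), and the 7 other members lay between -0.30 (TCF3) and 0.59 (PAX5), with adjusted p from 0.525 upward.

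These calls sat at the edge of the threshold. Leaving out any single library other than CE-26 gave an adjusted p for ID3 of 0.0612 to 0.126, and for IKZF3 of 0.0244 to 0.127, the latter under 0.05 without CE-25 or CE-28 and above it without any other. By tool and scaling it ran from 4.73e-04 (voom) to 0.341 (DESeq2) for ID3 and from 0.00149 (voom) to 0.202 (no filter) for IKZF3. Without CE-26 the interaction passed for 4 members, where 14% of 20959 genes did: ID3, IKZF3 (-0.96 ± 0.25, edgeR, adjusted p = 0.0254), IKZF1 (0.63 ± 0.17, adjusted p = 0.0325) and TCF3 (-0.52 ± 0.16, adjusted p = 0.0496).

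Members of the same gene families were examined next, as 14 relatives of which 9 passed the filter in SUDHL6 and 8 in SUDHL16. In SUDHL6, 4 of 9 were called, against 8.96% of all genes tested, 2 higher and 2 lower, with a median log2 fold change of -0.07. ID1 rose from 5.55 ± 0.517 to 16.2 ± 1.49 CPM (SD, n = 3) and ID2 from 6.60 ± 0.813 to 15.9 ± 0.933 CPM, both inhibitors of E proteins like ID3. TCF4, an E protein related to TCF3, fell from 5.31 ± 0.318 to 1.31 ± 0.407 CPM, and EBF4 fell from 3.60 ± 0.799 to 1.77 ± 0.391 CPM.

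These 4 SUDHL6 changes had edgeR log2 fold changes of 1.55 for ID1 (adjusted p = 7.44e-08), 1.27 for ID2 (3.98e-07), -2.01 for TCF4 (4.23e-06) and -1.02 for EBF4 (0.00151). In SUDHL16, 1 of 8 relatives was called, against 5.3% of all genes tested, with a median of -0.16. This was IKZF2, encoding Helios, which fell from 81.9 ± 29.9 to 5.48 ± 2.66 CPM (log2 fold change -3.89, edgeR, adjusted p = 0.00287), and which stood at 145 and 103 CPM in SUDHL6-parental and SUDHL6-resistant (log2 fold change -0.49). Without CE-26, 2 of 8 were called, IKZF2 and EBF4, against 10.0% of all genes tested. EBF4 then stood at 0.186 to 0.331 CPM in the parental and 2.04 to 5.89 CPM in the resistant libraries (edgeR, adjusted p = 0.0245). In CE-26 it stood at 14.1 CPM. TCF4 was abundant in SUDHL16, at 280.0 ± 85.8 and 369.9 ± 79.3 CPM, and ID1 did not pass the filter there.

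Of 16 other B-lineage transcription factors, 3 of 15 tested were called in SUDHL6, against 8.96% of all genes tested. IRF4, which drives the exit toward plasma cells, fell from 366 ± 2.95 to 194 ± 1.59 CPM (log2 fold change -0.92, edgeR, adjusted p = 7.91e-12). BACH2, which holds back that exit, fell from 97.6 ± 2.19 to 60.9 ± 1.76 CPM (-0.68, adjusted p = 4.21e-09), and MEF2C, a factor of B-cell receptor signalling, rose from 3.21 ± 0.388 to 7.70 ± 0.527 CPM (1.26, adjusted p = 3.22e-06). In SUDHL16, 1 of 13 was called, against 5.3% of all genes tested. This was the repressor GFI1, which fell from 9.99 ± 3.58 to 0.462 ± 0.400 CPM (-4.36, edgeR, adjusted p = 0.0404). That call was lost without CE-25, CE-27, CE-29 or CE-30, which left 0 of the list called (adjusted p for GFI1 up to 0.157).

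Without CE-26, 4 of 13 were called in SUDHL16, against 10.0% of all genes tested. CIITA, the master regulator of HLA class II, was then at 0.372 and 0.386 CPM in CE-25 and CE-27 and 107 to 197 CPM in the resistant libraries (edgeR, adjusted p = 6.42e-05), whereas CE-26 held 18.3 CPM. IRF4 was at 0 and 0.124 CPM in those 2 libraries, 3.10 CPM in CE-26 and 2.68 to 9.51 CPM in the resistant ones (adjusted p = 0.00536 without CE-26). RUNX1 was at 124 ± 11.5 CPM in the 2 parental and 64.5 ± 11.1 CPM in the resistant libraries (adjusted p = 0.0319), and GFI1 remained the fourth. CIITA and RUNX1 were named after their values were seen.

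Genes activated by EBF1, PAX5, TCF3 or Oct-2 and OCA-B formed a list of 16, written from general knowledge. It too was written with earlier results of these data known, so its counts beside all genes describe the list and do not test it. In SUDHL6, 4 of 13 tested were called, against 8.96% of all genes, 1 higher and 3 lower, with a median log2 fold change of -0.12. Among the lower ones VPREB3 fell from 57.5 ± 1.203 to 35.5 ± 1.32 CPM (edgeR, adjusted p = 2.35e-08) and FCER2, the low-affinity IgE receptor, from 4.62 ± 0.331 to 2.92 ± 0.236 CPM (adjusted p = 0.00121). CR2, the complement receptor of B cells, rose from 0.625 ± 0.116 to 2.33 ± 0.215 CPM (adjusted p = 1.24e-05).

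In SUDHL16, 4 of 11 targets were called and all 4 were higher in the resistant line, with a median of 0.42. Of all genes tested there, 5.3% were called, 3.2% higher and 2.1% lower. CR2 rose from 13.4 ± 2.02 to 177 ± 32.3 CPM (log2 fold change 3.72, edgeR, adjusted p = 4.94e-04). CD72, a coreceptor of the B-cell receptor, rose from 10.7 ± 2.84 to 102 ± 5.34 CPM (3.22, adjusted p = 5.55e-04). The kinase gene BLK rose from 32.4 ± 7.49 to 128 ± 39.3 CPM (1.98, adjusted p = 0.00916) and VPREB3 from 32.02 ± 1.89 to 103 ± 29.4 CPM (1.69, adjusted p = 0.0106). Without CE-26 these 4 were called again, and without CE-28 only CR2 and CD72 were (adjusted p for BLK 0.0511 and for VPREB3 0.0576). VPREB3 also missed the threshold without CE-25 (0.0541) or CE-30 (0.0528). CR2 was called higher in both lines, and VPREB3 was called lower in SUDHL6 and higher in SUDHL16.

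CD79A and MS4A1, targets widely used to identify B cells, were not called in either line. CD79A, a chain of the B-cell receptor complex, stood at 746 ± 15.2 and 686 ± 13.1 CPM in SUDHL6 and 594 ± 126 and 779.8 ± 149 CPM in SUDHL16 (log2 fold changes -0.12 and 0.39, edgeR, adjusted p = 3.39e-04 and 0.560). MS4A1, which encodes CD20, stood at 1849 ± 23.8 and 2139 ± 18.5 CPM in SUDHL6 and 669.9 ± 62.6 and 727 ± 126 CPM in SUDHL16 (0.21 and 0.12, adjusted p = 8.59e-08 and 0.875).

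A list of 10 genes that PAX5 is known to repress was also written from general knowledge, and 5 of them were tested in each line. Earlier results of these data were known when it was written, so its counts beside all genes describe the list and do not test it. In SUDHL6, 4 of 5 were called and all 4 were lower, where 8.96% of all genes tested were called (4.65% lower). XBP1, a factor of the secretory programme, fell from 39.7 ± 1.55 to 20.4 ± 2.65 CPM (edgeR, adjusted p = 8.37e-07), and JCHAIN, the joining chain of secreted antibody, from 467 ± 2.50 to 245 ± 1.82 CPM (adjusted p = 3.60e-12). NOTCH1, a receptor of T-lineage commitment, fell from 15.5 ± 1.19 to 8.99 ± 0.847 CPM (adjusted p = 1.55e-05) and the chemokine gene CCL3 from 2.30 ± 0.339 to 1.49 ± 0.115 CPM (adjusted p = 0.0135), a call lost without CE-7 (adjusted p = 0.0649) and, by its fold, without CE-11.

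In SUDHL16, 4 of 5 were called, 3 higher and 1 lower, where 5.3% of all genes tested were called. XBP1 rose from 16.4 ± 8.04 to 90.8 ± 13.95 CPM (log2 fold change 2.47, edgeR, adjusted p = 0.0102) and NOTCH1 from 12.4 ± 9.88 to 57.5 ± 17.2 CPM (2.31, adjusted p = 0.0458). PRDM1, which encodes the plasma cell factor Blimp-1, was at 0 in CE-25 and CE-27, 0.689 CPM in CE-26 and 9.38 to 12.7 CPM in the resistant libraries (adjusted p = 0.0169). JCHAIN went the other way, from 284 to 605 CPM in the parental to at most 0.0851 CPM in the resistant libraries (adjusted p = 3.02e-04). XBP1 and NOTCH1 were thus called lower in SUDHL6 and higher in SUDHL16, and JCHAIN lower in both. Without CE-26 the same 4 genes were called in SUDHL16, whereas 1 was without CE-28 or CE-30 (JCHAIN), 2 without CE-29 (JCHAIN and XBP1) and 3 without CE-25 or CE-27 (all but NOTCH1).

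**Figure D4:**
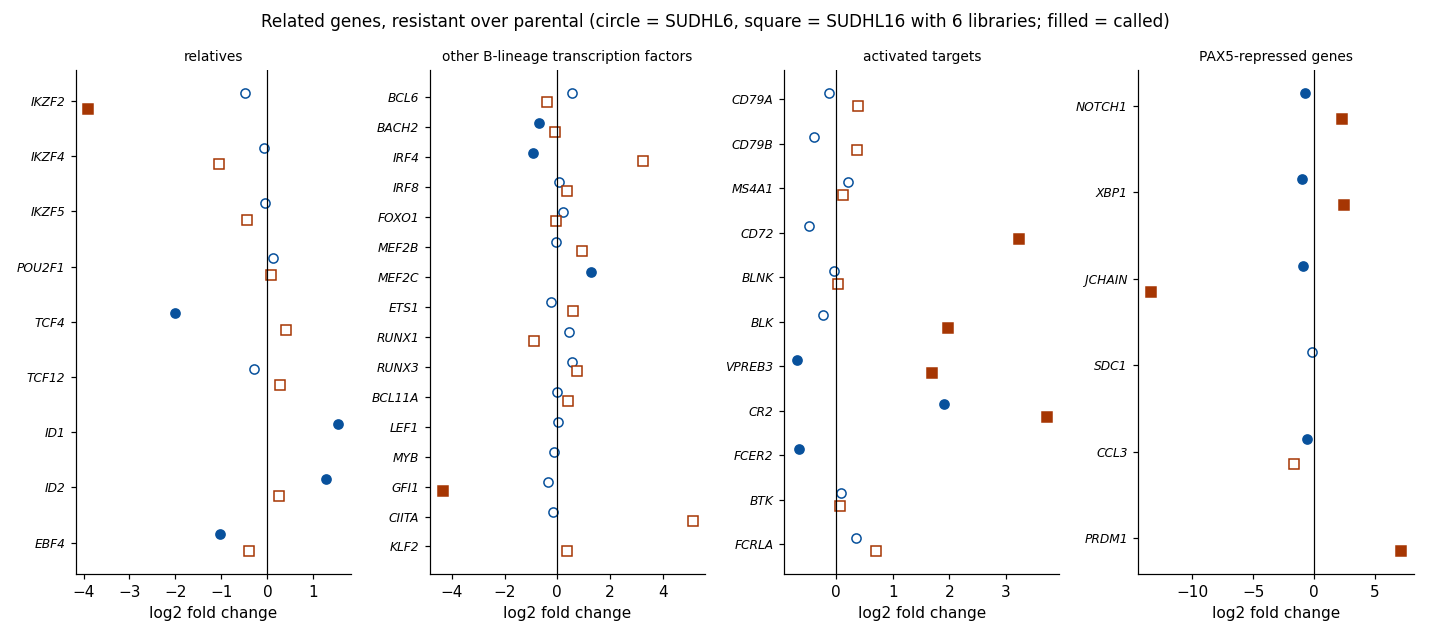
Log2 fold change, resistant over parental (horizontal axes, a scale of their own in each panel), of most tested genes in the lists of relatives, other B-lineage transcription factors, activated targets and PAX5-repressed genes, with circles for SUDHL6, squares for SUDHL16 with 6 libraries, and filled marks for called genes. Of the activated targets the 4 filled squares lie to the right of 0, and of the PAX5-repressed genes the 4 filled circles lie to its left.

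Genes that start within 1 Mb of a member were used to see whether its surroundings moved with it. Around IKZF3 in SUDHL16, 5 of 29 protein-coding genes tested had a positive log2 fold change and their median was -0.49, beside -1.16 for IKZF3 and -0.02 for all genes. Without CE-26, 7 of 29 were positive with a median of -0.52. In SUDHL6 22 of 32 were positive with a median of 0.06. RAPGEFL1 was the 1 neighbour called in SUDHL16 with 6 libraries (log2 fold change -1.44, edgeR, adjusted p = 0.0315), named after its value was seen.

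Around ID3 in SUDHL16, 14 of 20 neighbours had a positive log2 fold change, with a median of 0.46 and a highest value of 1.79, and 0 were called in edgeR with all 6 libraries. Without CE-26 the median was 0.48 and 2 of 20 were called higher, RCAN3 (1.07, edgeR, adjusted p = 0.0362) and ASAP3 (adjusted p = 0.00697), named after their values were seen. In SUDHL6 13 of 22 were positive with a median of 0.12, and 2 were called higher, 1 of them RCAN3 (0.77, edgeR, adjusted p = 1.37e-07). IKZF1 had 1 tested neighbour in SUDHL16, at 0.37. The values describe the surroundings of these genes, and copy number was not measured.

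**Figure D5:**
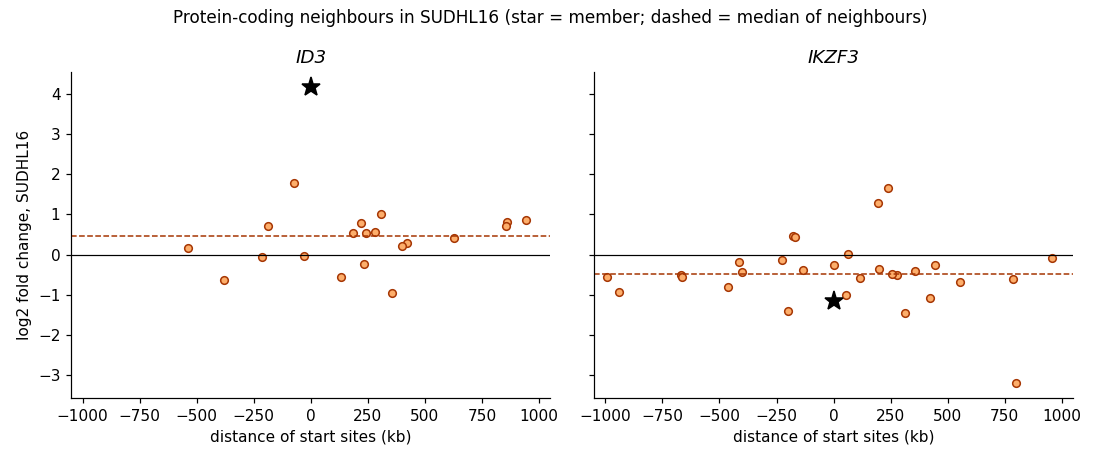
Log2 fold change in SUDHL16 with 6 libraries, resistant over parental (vertical axis), of protein-coding genes against the distance of their start from that of ID3 or IKZF3 in kb (horizontal axis), where the star is the member and the dashed line the median of its neighbours. The medians lie at 0.46 around ID3 and -0.49 around IKZF3.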

How the data were processed

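Whole-number counts of reads per gene were deposited by the authors for each of 12 libraries, without normalization, after TrimGalore, HISAT2 alignment to GRCh38 and StringTie. The tool, annotation and strand setting of the counting are not given in the sources used here, so overlapping genes could share reads. Symbols and positions came from GENCODE 44 (56558 of 60675 identifiers). Each line was fitted alone with edgeR 4.0.16 in R 4.3.3 (filterByExpr, TMM, two-sided quasi-likelihood test), and calls needed a Benjamini-Hochberg adjusted p under 0.05 over all genes tested and at least 1.5-fold. CPM are on the TMM scale of the line, and per kb means per kb of the union of annotated exons. Where a library had no read of a gene, 3 counts served as its upper limit.

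Library totals ran from 4131927 to 40885665. Alternatives were DESeq2 1.42.0, limma 3.58.1 voom with quality weights, other scalings, no filter, protein-coding genes only, a single fit of 12 libraries, and each library left out. The tests were checked on simulated counts drawn with 1 dispersion per fit and no library that stood apart. That check therefore does not cover CE-26 or the unlike spread of the 2 lines. Groups came from the labels. The text names all 10 members, up to 6 called genes per list and line, and CD79A and MS4A1, except that some genes the rule names are not reported here. Genes most correlated with a called member were to be named too, but no member was called. Members and lists were chosen with earlier results of these data known. Tables and figures used Python 3.11.15, pandas 2.3.3, numpy 2.4.6 and matplotlib 3.10.9.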

Additional observations from a re-analysis of the deposited data

Results flagged for a closer look

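The change on resistance, resistant over parental in log2, differed between SUDHL16 and SUDHL6 in edgeR's interaction test for 14 of the genes named above. For the members the difference, SUDHL16 minus SUDHL6, was 4.81 for ID3 (adjusted p = 0.0440) and -1.18 for IKZF3 (0.0476). Among their relatives it was 2.43 for TCF4 (adjusted p = 0.00587) and -3.38 for IKZF2 (0.00198).

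Among the other B-lineage transcription factors it was 5.26 for IRF4 (edgeR, adjusted p = 0.0126) and -3.88 for GFI1 (0.00974). Of the activated targets it was 1.85 for CR2 (adjusted p = 0.00272), 2.42 for VPREB3 (2.58e-04), 3.70 for CD72 (7.72e-06) and 2.23 for BLK (0.00174). Of the PAX5-repressed genes it was 3.45 for XBP1 (adjusted p = 6.29e-04), 3.21 for NOTCH1 (0.00397), 8.22 for PRDM1 (0.00535) and -12.53 for JCHAIN (1.29e-06). The last 2 are fitted values that depend on the prior count, since a group was at or near 0. Kit and line cannot be told apart in these differences. The fit also gave each gene 1 dispersion for 2 lines of unlike spread, so these adjusted p-values may be too low. A single fit of 12 libraries called 2855 genes in SUDHL16, where the fit of that line alone called 833. In SUDHL6 it called 140, against 1493. IRF4 was not called in SUDHL16 fitted alone with all 6 libraries (edgeR, adjusted p = 0.290).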

How the results depend on the processing

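In SUDHL6 0 members were called under any alternative. In SUDHL16, members called were 2 with DESeq2 (11.1% of all genes), 1 with no filter (2.14%), 3 in a single fit of 12 libraries (14.6%), 3 with voom weights (16.9%) and 0 to 1 with a library left out (1 without CE-26). Members differing between the lines were 1 with library totals (6.1% of all genes), 0 with no filter (1.83%), 0 with upper-quartile scaling (8.04%), 4 with voom weights (14.6%) and 0 to 4 with a library left out. The single fit of 12 libraries left 1 relative, 0 other factors, 1 activated target and 0 PAX5-repressed genes called in SUDHL6. In SUDHL16 relatives called were 2 with DESeq2 and 2 with voom weights, and 1 to 2 with a library left out. Other factors called there were 4 with DESeq2, 2 with library totals, 2 with no filter, 2 over protein-coding genes, 6 in the single fit, 2 with upper-quartile scaling, 5 with voom weights and 0 to 4 with a library left out. Activated targets ranged from 2 to 4 and PAX5-repressed genes from 1 to 4. The cause was not tested.

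Only log2 fold changes near 0 turned. In SUDHL6 POU2AF1 reached 0.00428 with upper-quartile scaling and ranged from -0.0218 to 0.00528 with a library left out, and POU2F2 reached 3.69e-04 with DESeq2, 0.00421 with library totals, 0.0118 with upper-quartile scaling, and ranged from -0.0133 to 0.00767 with a library left out. In SUDHL16 EBF1 was -0.0505 with voom weights, SPI1 -4.75e-04 over protein-coding genes and -0.0365 with upper-quartile scaling, and SPIB 0.0327 with library totals and 0.0273 with no filter. With a library left out EBF1 ranged from -0.0340 to 0.259, SPI1 from -0.112 to 0.336, SPIB from -0.222 to 0.130, POU2AF1 from -0.529 to 0.0163 and MS4A1 from -0.0311 to 0.241. In the difference between lines SPI1 was 0.00774 with library totals and 0.0380 with no filter, and SPIB 0.0561 and 0.0872. With a library left out this difference ranged from -0.277 to 0.207 for SPI1, -0.201 to 0.239 for SPIB, -0.564 to 0.0597 for POU2AF1 and -0.0412 to 0.385 for POU2F2.

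Library totals moved the median of all genes in SUDHL16 to 0.11 and upper-quartile scaling to -0.11, and over 41969 genes with no filter it was -1.18 in edgeR and -1.37 in DESeq2. DESeq2 called 1008 genes higher and 1104 lower in SUDHL16, against 503 and 330 in edgeR. Over all settings 279 to 2855 genes were called in SUDHL16, and 140 to 1518 in SUDHL6. CE-26 had the lowest depth, 4131927 counts, yet the most genes with a count, 34938. The part of its depth in these results was not tested. No paired analysis was possible because the labels give no replicate numbers.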
